A study of Mus musculus with 2 samples.

Results

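Calcium buffers and calmodulin regulators, 9 genes in all, were followed through the cell classes of the noise-exposed mouse inner ear. They were Calb1 (calbindin), Calb2 (calretinin), Pvalb (parvalbumin), Ocm (oncomodulin), S100a1, S100b, Pcp4 (Purkinje cell protein, also called PEP-19), Calm2 and Calm3. The genes were chosen by symbol, and each symbol matched 1 of the 32285 genes in both count matrices. The AAV-Isl1 plus noise group came from ears of wild-type CBA/CaJ mice, 4 to 6 weeks old, that received an adeno-associated virus (AAV) carrying the transcription factor Isl1 and then noise of 105 dB between 1 and 20 kHz for 2 h. The noise-only group came from the untreated opposite ears of the same mice, so the ears of both groups had heard the noise. Sensory epithelium was taken 2 days later, and cells of 5 mice were pooled into 1 single-cell library per group. The promoter of the vector is not given in the sources used here, and ears with a control vector or without noise were not analysed here. With 1 library per group, no difference between the groups could be tested, and every interval, at 95%, covers counting error only.

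A cytosolic calcium buffer binds calcium through EF-hand loops and shapes how far and how long a calcium signal spreads. Calbindin, calretinin, parvalbumin and oncomodulin are the classical buffers of the ear, and oncomodulin is known as a protein of outer hair cells. Calmodulin is the calcium sensor that passes the signal on to enzymes and channels, and Pcp4 is a small IQ-motif protein that binds calmodulin and speeds its exchange of calcium. S100 proteins are EF-hand dimers. S100b is a common marker of Schwann and other glial cells, and S100a1 is known from supporting cells of the organ of Corti.

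Calm2 and Calm3 are separate genes for 1 protein, and the start of their coding sequences is shown because it bears on whether reads can be told apart. Their coding sequences, found in the GENCODE vM21 transcripts, translate to the same 149 residues. Calm2 and Calm3 differ at 78 coding bases, an identity of 82.7%. The longest run that their transcripts share is 17 bases. In the last 500 bases, where 3' reads are expected to fall, it is 15 bases. The first 90 coding bases follow, 5′ to 3′, with a capital at each of the 15 positions where the 2 genes have different bases.
Calm2: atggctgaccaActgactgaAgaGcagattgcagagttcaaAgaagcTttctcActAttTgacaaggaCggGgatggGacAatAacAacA
Calm3: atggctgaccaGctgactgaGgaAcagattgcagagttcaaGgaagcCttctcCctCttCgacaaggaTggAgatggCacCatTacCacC

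On GRCm38, with GENCODE vM21, the 9 genes lie on 9 chromosomes. The classical buffers are Calb1 (chr4:15881264-15908064, plus strand), Calb2 (chr8:110137502-110168210, minus strand), Pvalb (chr15:78191114-78206400, minus strand) and Ocm (chr5:144019804-144026670, minus strand). The S100 genes are S100a1 (chr3:90511034-90514392, minus strand) and S100b (chr10:76253853-76261159, plus strand). Calmodulin and its regulator are Calm2 (chr17:87433412-87446935, minus strand), Calm3 (chr7:16915379-16924114, minus strand) and Pcp4 (chr16:96467606-96525793, plus strand). S100b overlaps the gene Dip2a on the other strand, which had 760 UMIs (unique molecule counts) with AAV-Isl1 and 710 with noise only, beside S100b's own 35064 UMIs with AAV-Isl1 and 31132 with noise only. Pcp4 overlaps Igsf5 on its own strand, which had 24 UMIs with AAV-Isl1 and 31 with noise only.

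After filtering, cells numbered 21736 in the AAV-Isl1 library and 18757 in the noise-only library, with medians of 1086 UMIs with AAV-Isl1 and 1048 with noise only. About 1600 cells had been loaded per library, far fewer than these barcodes, and the libraries shared 145 barcodes. Cells were clustered without the 9 genes and named "X-like" from markers that do not include them. Levels are UMIs of a gene per 1000000 UMIs of its class (CPM), and detection is the share of cells with a UMI after each cell was thinned to 1000 UMIs. The libraries were labelled as cochlear sensory epithelium, but some cells carried vestibular markers, some of which are named below. Isl1 itself stood at 585 CPM with AAV-Isl1 against 49 CPM with noise only in hair cell-like cells and at 609.6 CPM with AAV-Isl1 against 112 CPM with noise only in epithelium-like cells. In neuron-like cells, which express Isl1 of their own, it stood at 257 CPM with AAV-Isl1 against 304 CPM with noise only. Whether RNA of the vector counts toward Isl1 is not given in the sources used here.

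The 9 genes had sharply different distributions. Calb1, Calb2, Pvalb and most Pcp4 lay in neuron-like cells and Ocm in a few hair cell-like cells. S100a1 had its highest level in epithelium-like cells, while S100b, Calm2 and Calm3 were spread over many classes. Neuron-like cells held 27% of all UMIs with AAV-Isl1 and 23.2% with noise only. They held 93.2% of the Calb2 UMIs with AAV-Isl1 and 94.9% with noise only, and 93.3% of the Pvalb UMIs with AAV-Isl1 and 95.1% with noise only. For calbindin, they held 94.5% of the Calb1 UMIs with AAV-Isl1 and 93.5% with noise only. The Pcp4 share was 89.6% of the Pcp4 UMIs with AAV-Isl1 and 83% with noise only. Hair cell-like cells, with 1.06% of all UMIs with AAV-Isl1 and 0.486% with noise only, held 84% of the Ocm UMIs with AAV-Isl1 and 77.2% with noise only. Epithelium-like cells, which are supporting and other non-sensory epithelial cells, held 28.4% of the S100a1 UMIs with AAV-Isl1 and 44.2% with noise only, more than any other class in either library.

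**Figure D1:**
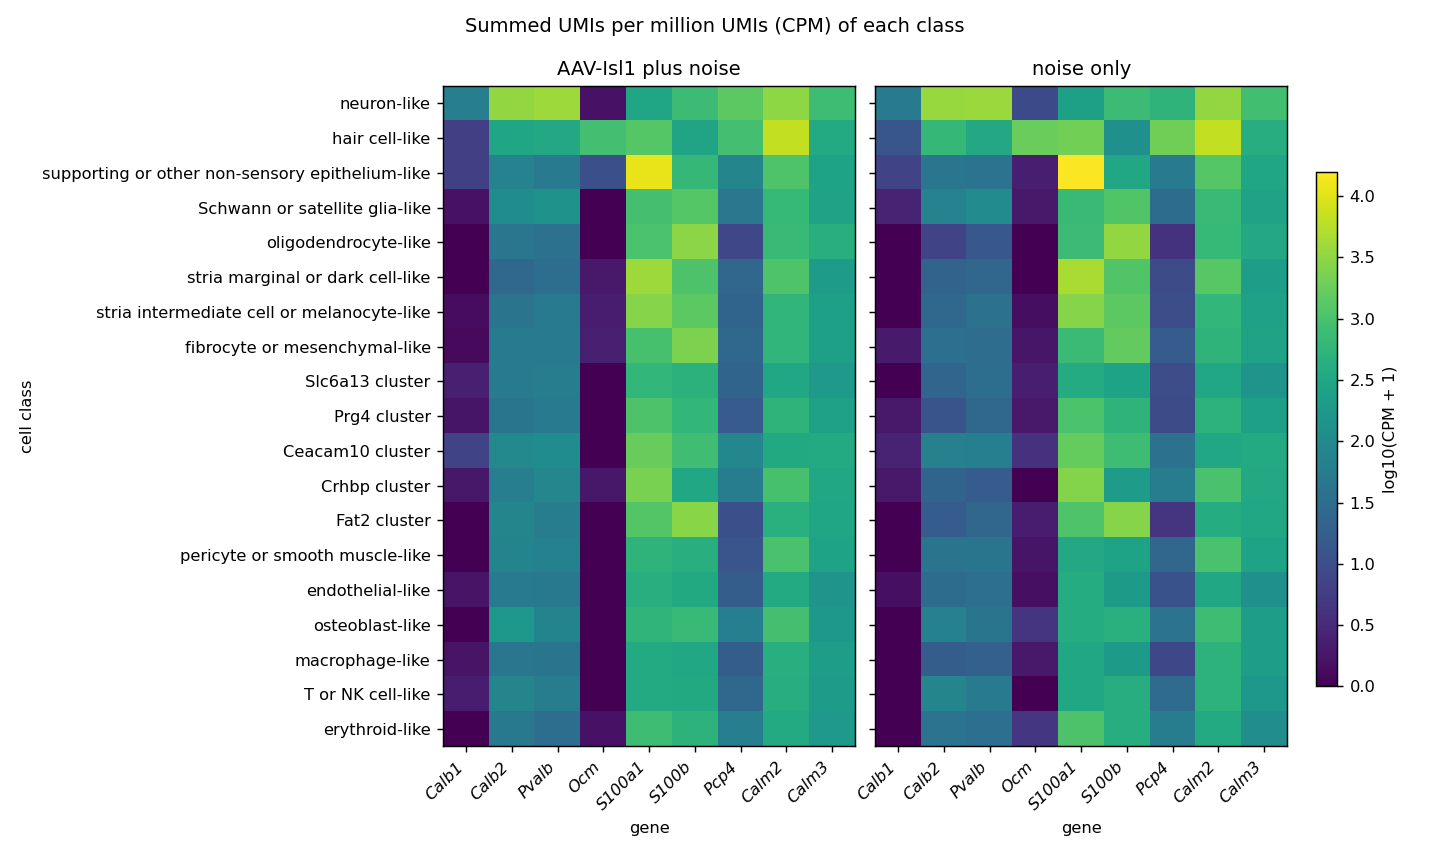
Heat map of the 9 genes (columns) in 19 cell classes (rows), coloured by log10(CPM + 1), with the AAV-Isl1 plus noise library on the left and the noise-only library on the right. Both panels show the same blocks, with Calb2 brightest in neuron-like cells (3296 CPM with AAV-Isl1 against 3509.7 CPM with noise only), Ocm in hair cell-like cells (865 CPM with AAV-Isl1 against 1739.5 CPM with noise only) and S100a1 in epithelium-like cells (11326 CPM with AAV-Isl1 against 14799 CPM with noise only).

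The level in cells that should lack a gene was taken as its floor of free RNA. In erythroid-like cells, which carry hemoglobin transcripts, Calb2 stood at 49.5 CPM with AAV-Isl1 against 39 CPM with noise only. Calb2 was detected in 4.19% of AAV-Isl1 and 2.5% of noise-only cells of that class, at median depths of 1937 UMIs with AAV-Isl1 and 2333 with noise only. Neuron-like cells, with medians of 6526 UMIs with AAV-Isl1 and 10192 with noise only, had Calb2 in 52% of AAV-Isl1 and 50.5% of noise-only cells. For Pvalb the erythroid-like floor was 32.2 CPM with AAV-Isl1 against 33.7 CPM with noise only, and for Pcp4 61.2 CPM with AAV-Isl1 against 56.8 CPM with noise only. S100a1 stood at 794 CPM with AAV-Isl1 against 1046 CPM with noise only and S100b at 509.8 CPM with AAV-Isl1 against 419 CPM with noise only in erythroid-like cells, above several other classes, so these levels were not taken as a floor. Erythroid-like Calb2 and Pcp4 were also above several other classes, so neither is the lowest level seen. Macrophage-like cells, for example, had Pcp4 at 16.2 CPM with AAV-Isl1 against 7.27 CPM with noise only. Calb1 had no erythroid-like UMI, which allows up to 1.86 CPM with AAV-Isl1 and 5.32 CPM with noise only, and Ocm had 1 UMI with AAV-Isl1 and 2 UMIs with noise only.

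The floor was not the same in both libraries. It was followed over 9 classes of connective tissue, stria, vessels, bone, blood and immune cells. Calb2 there ran between 24.3 and 175 CPM with AAV-Isl1 and between 16.3 and 80.2 CPM with noise only. The ratio of AAV-Isl1 plus noise over noise only was above 1 in 9 of the 9 classes, with a median of 1.62. For Pvalb it was above 1 in 8 of 9, with a median of 1.47, and for Pcp4 in 7 of 9, with a median of 1.61. Neuron-like cells supplied a larger share of all UMIs with AAV-Isl1, as given above, and the part of this in the floor was not tested. Neuron-like cells had 0.853 Calb2 UMIs per Pvalb UMI with AAV-Isl1 and 0.937 with noise only. Erythroid-like cells had 1.54 (1.07 to 2.23) with AAV-Isl1 and 1.16 (0.598 to 2.26) with noise only. Over 19 classes other than neuron-like cells the median was 0.975 with AAV-Isl1, and 14 had an interval that held the neuronal value. With noise only the median of 17 such classes was 0.966, and the intervals of 14 held it.

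Calretinin split the neuron-like cells (1495 in the AAV-Isl1 library and 799 in the noise-only library), while parvalbumin was present throughout. Over the class, Calb2 stood at 3296 CPM with AAV-Isl1 against 3509.7 CPM with noise only (ratio 0.939, 0.924 to 0.955). Its levels in 10 sub-clusters, each called by a leading gene or by its markers, covered a wide range. The Rxrg sub-cluster was richest, at 8477 CPM with AAV-Isl1 against 9540.3 CPM with noise only. Next came the Ttn sub-cluster, at 6364 CPM with AAV-Isl1 against 6485 CPM with noise only. Rxrg and Ttn were on the marker lists of type Ia and type Ib spiral ganglion neurons, but too few of those markers were raised to name either sub-cluster. The Apoe sub-cluster had 6019 CPM with AAV-Isl1 against 4899 CPM with noise only, and the Dnase1 sub-cluster, with the melanocyte genes Dct, Mlana and Tyr among its leading genes, 4979 CPM with AAV-Isl1 against 3754 CPM with noise only. A further sub-cluster with Ttn and Mgp had 2499.8 CPM with AAV-Isl1 against 2393 CPM with noise only.

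At the low end stood the pair of sub-clusters with type Ic markers (Pou4f1, Lypd1 and Grm8, with Runx1 in the second). Calb2 in the larger Ic-like sub-cluster stood at 299 CPM with AAV-Isl1 against 158 CPM with noise only. In it, 5 cells held 292 of the 551 Calb2 UMIs with AAV-Isl1 and 133 of the 307 with noise only. The smaller Ic-like sub-cluster had 201 CPM with AAV-Isl1 against 129.9 CPM with noise only. Calretinin is known in the mouse cochlea as high in Ia, intermediate in Ib and low in Ic neurons. The small type II-like sub-cluster (Th, Prph, Gata3 and Plk5), of 18 AAV-Isl1 and 10 noise-only cells, had 2 UMIs with AAV-Isl1 and 0 with noise only.

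Parvalbumin varied less. Over the class Pvalb stood at 3863 CPM with AAV-Isl1 against 3747 CPM with noise only (ratio 1.03, 1.02 to 1.05), detected in 94% of AAV-Isl1 and 94% of noise-only cells. Its lowest level was in the Ncmap sub-cluster, which has the myelin gene Mal among its leading genes, at 2029 CPM with AAV-Isl1 against 1886 CPM with noise only. Its highest was in the Tac1 sub-cluster, at 5524 CPM with AAV-Isl1 against 5249.8 CPM with noise only. In the type II-like sub-cluster, nearly without calretinin, Pvalb stood at 2341 CPM with AAV-Isl1 against 3241 CPM with noise only.

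Calbindin was rare in neurons, and the sub-cluster with its highest level was not the one richest in calretinin. Calb1 stood at 61.5 CPM with AAV-Isl1 against 53.7 CPM with noise only (ratio 1.15, 1.01 to 1.3) and was detected in 3.82% of AAV-Isl1 and 5.0% of noise-only cells. In the Rxrg sub-cluster, richest in Calb2, Calb1 stood at 21.2 CPM with AAV-Isl1 against 23.2 CPM with noise only. The Ttn sub-cluster had 91.9 CPM with AAV-Isl1 against 104 CPM with noise only, and the sub-cluster with Ttn and Mgp 110.1 CPM with AAV-Isl1 against 105 CPM with noise only. The highest sub-cluster was the Tac1 one with AAV-Isl1, at 132 CPM, and the Ncmap one with noise only, at 232 CPM. The Tac1 sub-cluster held 41.3% of the neuronal Calb1 UMIs with AAV-Isl1 and 13.6% with noise only, mostly in few cells. Single cells of it had 69, 66, 35, 19 and 19 Calb1 UMIs with AAV-Isl1, and 39 and 17 with noise only. Its rank therefore rests on those cells. Calb1 was nevertheless found mostly in cells that also had Calb2. After thinning, Calb2 was detected in 87.3% of AAV-Isl1 and 89.7% of noise-only cells with Calb1, but in 50.6% of AAV-Isl1 and 48.4% of noise-only cells without it. A few cells held much of the Calb1: 7 cells with at least 10 UMIs held 230 of 600 with AAV-Isl1, and 3 held 66 of 419 with noise only. The AAV-Isl1 cell with the most Calb1 also had the most Calb2. The Calb1 ratio changed direction with a few cells. It was 0.932 without the 5 cells richest in Calb1 in each library, 0.888 without the Tac1 sub-cluster, and 0.934 (0.82 to 1.06) when weighted over sub-clusters.

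**Figure D2:**
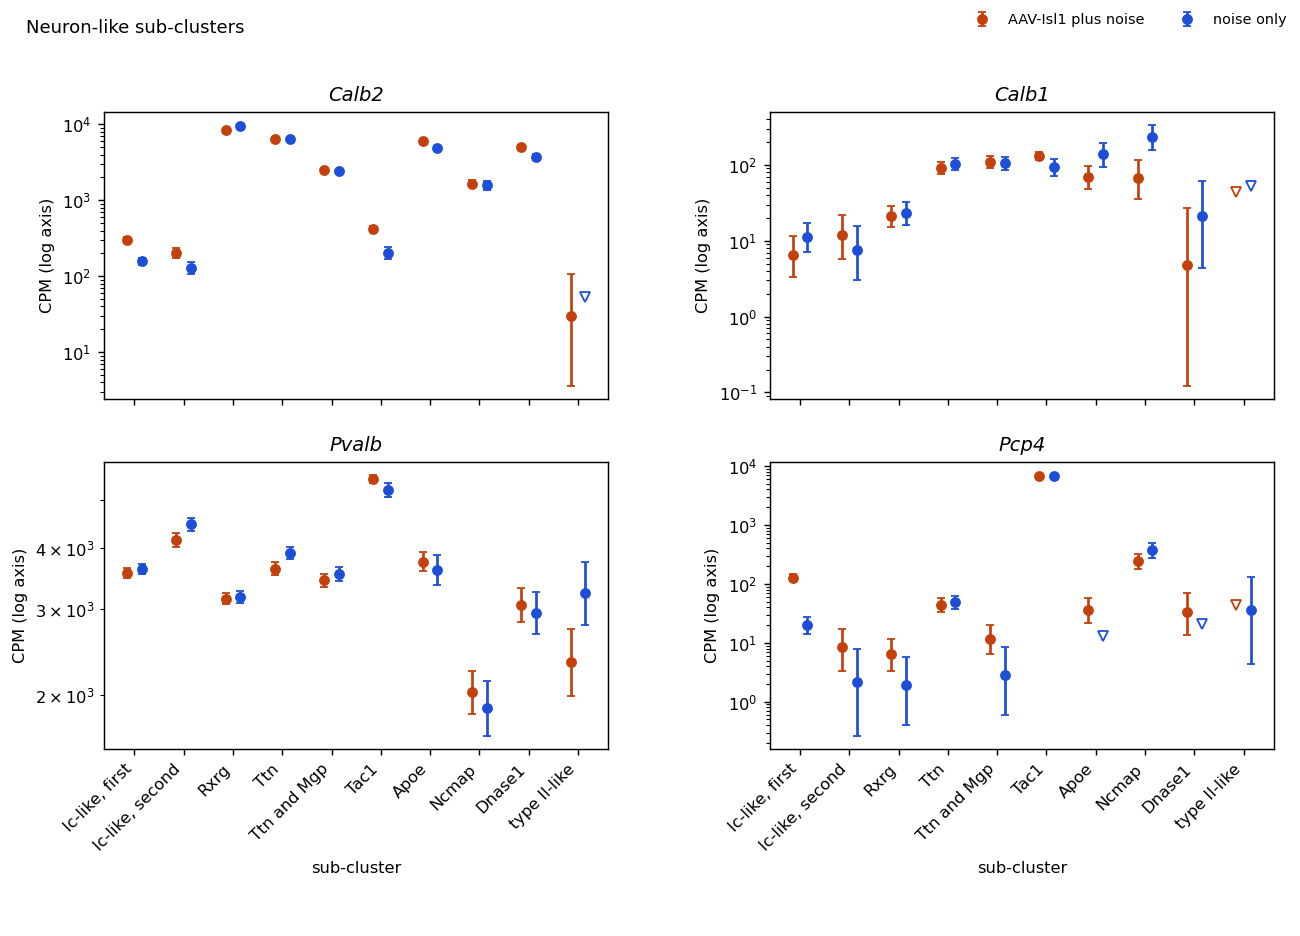
Levels of Calb2, Calb1, Pvalb and Pcp4 (CPM, log axes with a range of their own in each panel) in the 10 neuron-like sub-clusters, AAV-Isl1 plus noise in orange at the left of each pair and noise only in blue at the right, with exact Poisson intervals and open triangles at the level of 3 UMIs where none was counted. Calb2 is high in the Rxrg sub-cluster (8477 CPM with AAV-Isl1 against 9540.3 CPM with noise only) and low in the Ic-like ones, while Pcp4 stands out in the Tac1 sub-cluster (6887 CPM with AAV-Isl1 against 6763 CPM with noise only).

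Hair cell-like cells numbered 323 in the AAV-Isl1 library and 92 in the noise-only library, and the Ocm result turned on 5 cells in each library. Ocm, the buffer of outer hair cells, stood at 865 CPM with AAV-Isl1 against 1739.5 CPM with noise only (ratio 0.497, 0.423 to 0.585) over the class. The Slc26a5 sub-cluster, named for prestin, the motor protein of outer hair cells, had 5 cells with AAV-Isl1 and 5 with noise only. It had 3 of 4 outer hair cell markers raised, and the inner hair cell markers Slc17a8 and Tbx2 as well. These cells held 183 of 330 Ocm UMIs with AAV-Isl1 (55.5%) and 240 of 284 with noise only (84.5%).

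Summed over those cells the direction was the other way. Ocm in the Slc26a5 sub-cluster stood at 26395 CPM with AAV-Isl1 against 16548 CPM with noise only (ratio 1.6, 1.31 to 1.94). Most of it lay in few cells. With AAV-Isl1 these had 78, 57 and 44 Ocm UMIs, among 1585, 1162 and 1258 UMIs of all genes. With noise only they had 91, 73 and 68, among 2051, 2715 and 1529. A further noise-only cell of the sub-cluster had 8 Ocm UMIs among 5341, and 0 of Slc26a5. Its part in the ratio was not tested. The cells of the sub-cluster made up 1.55% of AAV-Isl1 and 5.43% of noise-only hair cell-like cells. Without them the class ratio was 1.33, and weighted over sub-clusters it was 1.57 (1.33 to 1.86). The largest hair cell sub-cluster, led by Bmp2, had 489 CPM with AAV-Isl1 against 455 CPM with noise only (ratio 1.08, 0.731 to 1.61). Bmp2 was on the marker list of vestibular type I hair cells, but too few of those markers were raised to name this sub-cluster. Among the Slc26a5 cells of the AAV-Isl1 library, the cell with the most Ocm, 78 UMIs, also had 37 UMIs of Isl1.

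Single barcodes of other classes also carried Ocm. In the noise-only library 56 of the 61 neuronal Ocm UMIs lay in 1 barcode, which also had 2 UMIs of Slc26a5 and 33 of Pcp4. The neuronal Ocm ratio of 0.0787 (0.0278 to 0.181) rests on that barcode. In the AAV-Isl1 library 1 neutrophil-like barcode had 35 UMIs of Ocm and 27 of Pcp4. Hair cell markers summed to 1825 CPM in the first barcode and 6865 CPM in the second.

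Of the other classical buffers, calretinin had a lower class sum in AAV-Isl1 hair cell-like cells, and parvalbumin was close to equal. Calb2 stood at 291 CPM with AAV-Isl1 against 631 CPM with noise only (ratio 0.461, 0.35 to 0.609). The 5 cells of the Slc26a5 sub-cluster in each library weighed on this: without them the class ratio was 0.733 (0.528 to 1.03), and without the 5 cells richest in Calb2 in each library it was 0.916. The largest sub-cluster, led by Bmp2, had 178 CPM with AAV-Isl1 against 171 CPM with noise only (ratio 1.05, 0.548 to 2.09). The type II-like sub-cluster had 581 CPM with AAV-Isl1 against 967 CPM with noise only (ratio 0.601, 0.384 to 0.948). It was named from the vestibular type II markers Anxa4, Mapt and Sox2, but had the inner hair cell markers Slc17a8 and Shtn1 raised as well, and Isl1 was among its leading genes. Calretinin is a known marker of vestibular type II hair cells. In the Slc26a5 sub-cluster Calb2 had 4 UMIs with AAV-Isl1 and 45 with noise only, and 36 of the noise-only UMIs lay in 1 cell. Pvalb stood at 343 CPM with AAV-Isl1 against 337 CPM with noise only (ratio 1.02, 0.739 to 1.42) in hair cell-like cells and was detected in 24.4% of AAV-Isl1 and 20.9% of noise-only cells. Calb1 had 2 UMIs with AAV-Isl1 and 2 with noise only, within the floor of 3 counts.

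**Figure D3:**
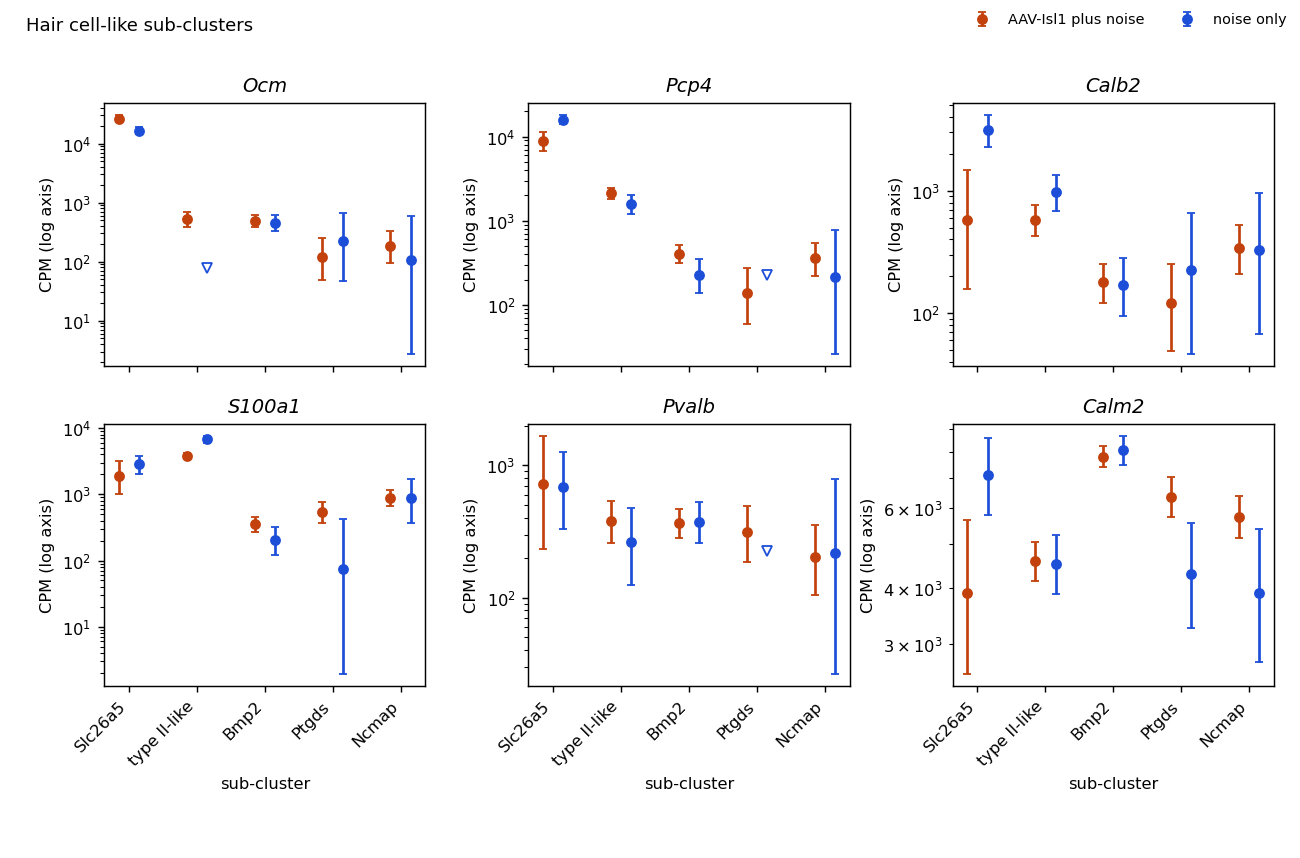
Levels of 6 genes (CPM, log axes with a range of their own in each panel) in the 5 hair cell-like sub-clusters, AAV-Isl1 plus noise in orange at the left of each pair and noise only in blue at the right, with exact Poisson intervals and open triangles at the level of 3 UMIs where none was counted. Ocm is concentrated in the Slc26a5 sub-cluster (26395 CPM with AAV-Isl1 against 16548 CPM with noise only) and S100a1 in the type II-like sub-cluster (3819.5 CPM with AAV-Isl1 against 6846 CPM with noise only), while Calm2 is high in all 5.

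S100a1 was the S100 gene of the epithelium-like cells (865 in the AAV-Isl1 library and 959 in the noise-only library). It stood at 11326 CPM with AAV-Isl1 against 14799 CPM with noise only (ratio 0.765, 0.749 to 0.782) and was detected in 98.2% of AAV-Isl1 and 99.5% of noise-only cells. Erythroid-like cells, for comparison, had it in 32.6% of AAV-Isl1 and 32% of noise-only cells. Among 9 sub-clusters the highest was that led by S100a6 and Lgals1, at 31262 CPM with AAV-Isl1 against 30349 CPM with noise only (ratio 1.03, 0.971 to 1.09). The Epyc sub-cluster followed, at 19185 CPM with AAV-Isl1 against 19893 CPM with noise only (ratio 0.964, 0.926 to 1.0). In both of these, and in the Mylk and Otol1 sub-clusters, the interval of the ratio included 1. The Mylk sub-cluster had 9948 CPM with AAV-Isl1 against 9996 CPM with noise only (ratio 0.995, 0.931 to 1.06), and the Otol1 sub-cluster 10473 CPM with AAV-Isl1 against 10170.0 CPM with noise only (ratio 1.03, 0.955 to 1.11).

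The mix of epithelial sub-clusters differed between the libraries, and its part in the S100a1 ratio was not separated from differences within them. The S100a6 sub-cluster made up 6.94% of AAV-Isl1 and 18.5% of noise-only epithelium-like cells. The Otol1 sub-cluster made up 17.3% of AAV-Isl1 and 6.05% of noise-only cells, and the Isl1 sub-cluster 15.4% of AAV-Isl1 and 3.86% of noise-only cells. Weighted over sub-clusters, the S100a1 ratio was 0.929 (0.908 to 0.951). Furthest below 1 was the Fam178b sub-cluster, which has the myelin gene Pmp22 among its leading genes, at 7931 CPM with AAV-Isl1 against 11572 CPM with noise only (ratio 0.685, 0.64 to 0.734). Isl1 was one of the genes that formed the Isl1 sub-cluster, so the size of that sub-cluster is not a readout of these genes.

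Hair cell-like and strial cells had S100a1 too. S100a1 in the hair cell-like class stood at 1258 CPM with AAV-Isl1 against 2021 CPM with noise only (ratio 0.623, 0.54 to 0.718), and without the 5 cells richest in it in each library the ratio was 1.02. The type II-like hair cells held 67.1% of that S100a1 with AAV-Isl1 and 79.4% with noise only, and had 3819.5 CPM with AAV-Isl1 against 6846 CPM with noise only (ratio 0.558, 0.473 to 0.659). Isl1 in them had 141 UMIs with AAV-Isl1 and 3 with noise only, and its part in the S100a1 values was not tested. Marginal or dark cell-like cells, the ion-transporting epithelium of the stria and its vestibular counterpart, had 3893 CPM with AAV-Isl1 against 4648 CPM with noise only (ratio 0.838, 0.803 to 0.874). Intermediate cell or melanocyte-like cells had 2691 CPM with AAV-Isl1 against 2786 CPM with noise only (ratio 0.966, 0.934 to 1.0). The order of epithelium-like, marginal and intermediate cells was the same in both libraries, with intervals that did not overlap. In neuron-like cells S100a1 stood at 305 CPM with AAV-Isl1 against 244 CPM with noise only (ratio 1.25, 1.18 to 1.33). The lowest of the 9 classes described for Calb2 above, T or NK cell-like cells, had 367 CPM with AAV-Isl1 against 316 CPM with noise only.

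S100b ran the other way in the epithelium-like cells. It stood at 623 CPM with AAV-Isl1 against 332 CPM with noise only (ratio 1.88, 1.67 to 2.1) there and was detected in 35.7% of AAV-Isl1 and 23.9% of noise-only cells. The lowest S100b levels among the 9 classes described for Calb2 were 332 CPM with AAV-Isl1, in macrophage-like cells, and 191 CPM with noise only, in endothelial-like cells. The Otol1 sub-cluster had 882 CPM with AAV-Isl1 against 754 CPM with noise only (ratio 1.17, 0.888 to 1.56). Otol1 encodes a protein of the otoconial membrane, so this is a vestibular marker. The Isl1 sub-cluster had 751 CPM with AAV-Isl1 against 710.0 CPM with noise only (ratio 1.06, 0.757 to 1.5). The Angptl1 sub-cluster, with Lgr5 and Slc26a4 among its leading genes, had 864 CPM with AAV-Isl1 against 950.1 CPM with noise only (ratio 0.909, 0.655 to 1.26). In these 3 sub-clusters, which had the highest S100b levels, the intervals of the ratios included 1. The intervals lay above 1 in 4 of the 9 sub-clusters, among them the Epyc sub-cluster, at 399.6 CPM with AAV-Isl1 against 174 CPM with noise only (ratio 2.29, 1.62 to 3.24), and the Fam178b sub-cluster, at 704 CPM with AAV-Isl1 against 464 CPM with noise only (ratio 1.52, 1.13 to 2.07). Weighted over sub-clusters, the ratio was 1.33 (1.18 to 1.49). Markers of Schwann and satellite glia summed to 3664 CPM with AAV-Isl1 against 2230.1 CPM with noise only (ratio 1.64, 1.57 to 1.72) in the same cells, and their part in the S100b result was not tested.

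**Figure D4:**
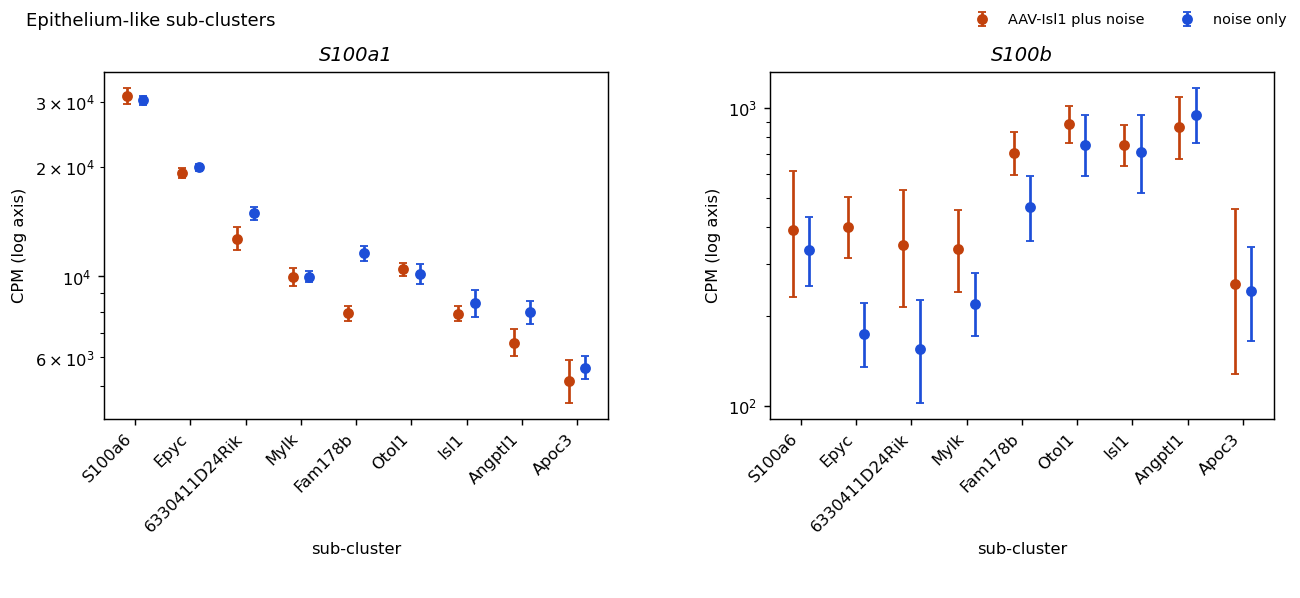
S100a1 and S100b levels (CPM, log axes) in the 9 sub-clusters of epithelium-like cells, AAV-Isl1 plus noise in orange at the left of each pair and noise only in blue at the right, with exact Poisson intervals. S100a1 is highest in the S100a6 sub-cluster (31262 CPM with AAV-Isl1 against 30349 CPM with noise only), while S100b is highest in the Otol1 sub-cluster with AAV-Isl1 (882 CPM) and in the Angptl1 sub-cluster with noise only (950.1 CPM).

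Glia expressed S100b broadly but were not its richest class. Schwann and satellite glia-like cells (4429 in the AAV-Isl1 library and 6587 in the noise-only library) had 1257 CPM with AAV-Isl1 against 1138 CPM with noise only (ratio 1.1, 1.06 to 1.15), detected in 66.3% of AAV-Isl1 and 63.4% of noise-only cells. Oligodendrocyte-like cells, the myelinating glia of the central part of the nerve, had 2949 CPM with AAV-Isl1 against 3338 CPM with noise only (ratio 0.884, 0.807 to 0.967). A cluster left unnamed, led by Fat2, had 2816 CPM with AAV-Isl1 against 2739 CPM with noise only (ratio 1.03, 0.969 to 1.09). Within glia, S100b was lowest in the small sub-cluster led by Scn7a, a gene known from Schwann cells that do not form myelin, at 616 CPM with AAV-Isl1 against 476 CPM with noise only (ratio 1.29, 0.887 to 1.86).

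More S100b UMIs came from fibrocytes than from any other class. Fibrocyte and mesenchymal-like cells held 26% of the S100b UMIs with AAV-Isl1 and 25% with noise only. Their level was 2386 CPM with AAV-Isl1 against 1558 CPM with noise only (ratio 1.53, 1.49 to 1.58), detected in 56.6% of AAV-Isl1 and 35.8% of noise-only cells. Schwann and satellite glia markers summed to 3636 CPM with AAV-Isl1 against 2078 CPM with noise only (ratio 1.75, 1.71 to 1.79) in them, and their part in the result was not tested. Over the same 9 classes, the S100b ratio was above 1 in 6, with a median of 1.42. Hair cell-like cells had less S100b than any of those 9 classes in either library, at 281 CPM with AAV-Isl1 against 129 CPM with noise only (ratio 2.18, 1.36 to 3.67). After thinning, the hair cell ratio was 1.26. There the glia markers summed to 2399 CPM with AAV-Isl1 against 1158 CPM with noise only (ratio 2.07, 1.77 to 2.44), with 13 of 16 seen with AAV-Isl1 and 12 with noise only, and their part was not tested. In neuron-like cells S100b stood at 743 CPM with AAV-Isl1 against 743 CPM with noise only (ratio 1.0, 0.966 to 1.04).

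Pcp4, the calmodulin regulator, was the member with the highest ratio in neurons and over all cells. Over neuron-like cells it stood at 1365 CPM with AAV-Isl1 against 547 CPM with noise only (ratio 2.49, 2.41 to 2.58). Nearly all of it lay in the Tac1 sub-cluster, led by Tac1, Kcnb2 and Syt1, which the subtype markers did not name. That sub-cluster held 12938 of 13331 neuronal Pcp4 UMIs with AAV-Isl1 (97.1%) and 4120 of 4274 with noise only (96.4%). Pcp4 in it stood at 6887 CPM with AAV-Isl1 against 6763 CPM with noise only (ratio 1.02, 0.983 to 1.05). The sub-cluster made up 186 of 1495 AAV-Isl1 neuron-like cells (12.4%) and 44 of 799 noise-only ones (5.51%). Outside the sub-cluster Pcp4 was scarce, with a ratio of 2.33 (1.93 to 2.83). The larger Ic-like sub-cluster had 127 CPM with AAV-Isl1 against 20 CPM with noise only (ratio 6.34, 4.5 to 9.15). It also held 93.4% of the noise-only neuronal Ocm UMIs, and with them the barcode of 56 Ocm and 33 Pcp4 UMIs. Most of its noise-only Pcp4 UMIs lay in that barcode, so the noise-only side of this ratio rests on few cells. That barcode raised the noise-only level, and so lowered this ratio and the one outside the Tac1 sub-cluster. How the AAV-Isl1 Pcp4 UMIs of this sub-cluster spread over its cells is not given here. With at least 500 genes per cell and at most 10% mitochondrial UMIs, the class ratio was 3.75. Weighted over sub-clusters, the neuronal Pcp4 ratio was 1.05 (1.02 to 1.09).

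The Pcp4 neurons had little calretinin. In the Tac1 sub-cluster Calb2 stood at 425 CPM with AAV-Isl1 against 202 CPM with noise only (ratio 2.1, 1.74 to 2.56). Few cells carried it: 5 cells held 658 of 798 UMIs with AAV-Isl1, and 1 cell held 106 of 123 with noise only. Pcp4 was detected in 1.87% of AAV-Isl1 and 1.27% of noise-only neuron-like cells with Calb2, but in 22.4% of AAV-Isl1 and 10.9% of noise-only cells without Calb2. A few cells had all 3 genes. The AAV-Isl1 cell with the most Calb1 had 69 UMIs of Calb1, 226 of Calb2 and 202 of Pcp4. Its noise-only counterpart had 39 of Calb1, 106 of Calb2 and 225 of Pcp4. Isl1 was lower in the Tac1 sub-cluster (57 CPM with AAV-Isl1 against 54.2 CPM with noise only) than in the larger Ic-like sub-cluster (284 CPM with AAV-Isl1 against 294 CPM with noise only).

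Hair cell-like cells were the class with the highest Pcp4 level with noise only, and neuron-like cells with AAV-Isl1. In hair cells Pcp4 stood at 891 CPM with AAV-Isl1 against 1923 CPM with noise only (ratio 0.463, 0.396 to 0.542) over the class. The Slc26a5 sub-cluster, richest in Ocm, had 8798 CPM with AAV-Isl1 against 15928 CPM with noise only (ratio 0.552, 0.41 to 0.735). Its 5 cells in each library held 17.9% of the hair cell-like Pcp4 UMIs with AAV-Isl1 and 73.6% with noise only. Of the noise-only UMIs, 91 lay in the cell of 5341 UMIs described for Ocm. The noise-only class level therefore rests largely on those 5 cells. The type II-like sub-cluster had 2135 CPM with AAV-Isl1 against 1594 CPM with noise only (ratio 1.34, 0.997 to 1.82). Pcp4 was detected in 65.4% (44.3 to 82.8) of AAV-Isl1 and 75% (34.9 to 96.8) of noise-only hair cell-like cells with Ocm. With noise only, 6 cells had both genes after thinning and 2 had Ocm without Pcp4. In cells without Ocm, Pcp4 was detected in 22.1% (16.4 to 28.5) with AAV-Isl1 and 16.7% (9.18 to 26.8) with noise only. The class ratio was 1.34 without the Slc26a5 sub-cluster and 0.952 (0.795 to 1.14) when weighted over sub-clusters.

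Pcp4 in epithelium and glia was low beside neurons and hair cells. Epithelium-like cells had 80 CPM with AAV-Isl1 against 53.3 CPM with noise only (ratio 1.5, 1.11 to 2.04), while the 9 classes without neurons or sensory cells had a median of 23.3 and a highest level of 64 CPM with AAV-Isl1. With noise only their median was 15.6 and their highest level 56.8 CPM. The Otol1 and Isl1 sub-clusters stood above that range, at 205 CPM with AAV-Isl1 against 219.9 CPM with noise only in the Otol1 sub-cluster and 116 CPM with AAV-Isl1 against 324 CPM with noise only in the Isl1 sub-cluster. Weighted over sub-clusters, the epithelial ratio was 0.815 (0.607 to 1.09). In glia Pcp4 stood at 46.3 CPM with AAV-Isl1 against 29 CPM with noise only (ratio 1.6, 1.27 to 2.01). Calb2 in glia stood at 109.7 CPM with AAV-Isl1 against 70.5 CPM with noise only (ratio 1.56, 1.34 to 1.8), and Pvalb at 135 CPM with AAV-Isl1 against 105 CPM with noise only (ratio 1.29, 1.14 to 1.47). These levels were low beside those of neurons. Neuron markers summed to 501 CPM with AAV-Isl1 against 387 CPM with noise only (ratio 1.29, 1.21 to 1.38) in glia, with 18 of 18 seen in each library, and their part in these results was not tested. In epithelium-like cells, where Calb2 stood at 72.2 CPM with AAV-Isl1 against 44.4 CPM with noise only (ratio 1.63, 1.17 to 2.27), they summed to 311 CPM with AAV-Isl1 against 187 CPM with noise only (ratio 1.66, 1.42 to 1.95), and their part was not tested.

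Calm2 was high in the excitable cells, and both calmodulin transcripts were close to equal between the libraries in neurons, hair cells, epithelium and glia. Calm2 was highest in hair cell-like cells, at 6494 CPM with AAV-Isl1 against 6621 CPM with noise only (ratio 0.981, 0.913 to 1.05). The UMIs mark transcript ends and are not divided by length. Among the hair cells the Bmp2 sub-cluster had 7821 CPM with AAV-Isl1 against 8094 CPM with noise only, and the type II-like sub-cluster 4579 CPM with AAV-Isl1 against 4520.3 CPM with noise only. Neuron-like cells had 3089 CPM with AAV-Isl1 against 3329 CPM with noise only (ratio 0.928, 0.913 to 0.944). In them the smaller Ic-like sub-cluster had 4366 CPM with AAV-Isl1 against 4543 CPM with noise only, and the calretinin-rich Rxrg sub-cluster 2430.4 CPM with AAV-Isl1 against 2473 CPM with noise only. Epithelium-like cells had 1085 CPM with AAV-Isl1 against 1238 CPM with noise only (ratio 0.877, 0.816 to 0.941), and glia 639 CPM with AAV-Isl1 against 665 CPM with noise only (ratio 0.96, 0.91 to 1.01).

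Calm3 was highest in neuron-like cells, at 795 CPM with AAV-Isl1 against 854 CPM with noise only (ratio 0.931, 0.901 to 0.962). Hair cell-like cells had 367 CPM with AAV-Isl1 against 417 CPM with noise only (ratio 0.881, 0.655 to 1.2), and epithelium-like cells 267 CPM with AAV-Isl1 against 302 CPM with noise only (ratio 0.886, 0.765 to 1.02). The glial level was 262 CPM with AAV-Isl1 against 261 CPM with noise only (ratio 1.01, 0.923 to 1.1). Calm2 had a higher CPM than Calm3 in each of these 4 classes in both libraries. In all 4 classes the ratios of Calm2 and Calm3 stayed within a fold of 1.5.

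A fold of at least 1.5 either way, among genes with at least 20 UMIs over both libraries, was reached in neuron-like cells by 2 of 9 members, Pcp4 upward and Ocm downward. Of all 13002 genes measured there, 8.3% reached it. Hair cell-like cells had 5 of 8, S100b upward and Calb2, Ocm, S100a1 and Pcp4 downward, against 24.7% of all genes. Epithelium-like cells had 3 of 7, Calb2, S100b and Pcp4, all upward, against 21.6% of all genes. In glia 2 of 7, Calb2 and Pcp4, reached it upward, against 11% of all genes. Calb1 was left out as too low in the last 3 of these classes, and Ocm in epithelium-like cells and glia. Over all kept cells it was Pcp4 alone, at 412 CPM with AAV-Isl1 against 153 CPM with noise only (ratio 2.69, 2.61 to 2.78), beside 11.2% of all genes (7.61% upward and 3.64% downward).

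Weighting over sub-clusters, an alternative chosen after seeing the data, changed these counts to 1 in neuron-like cells (Ocm), 3 in hair cell-like cells (Calb2, S100b and Ocm, the last now upward) and 0 in epithelium-like cells. In glia it was 2, with Calb2 and Pcp4 as before.

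**Figure D5:**
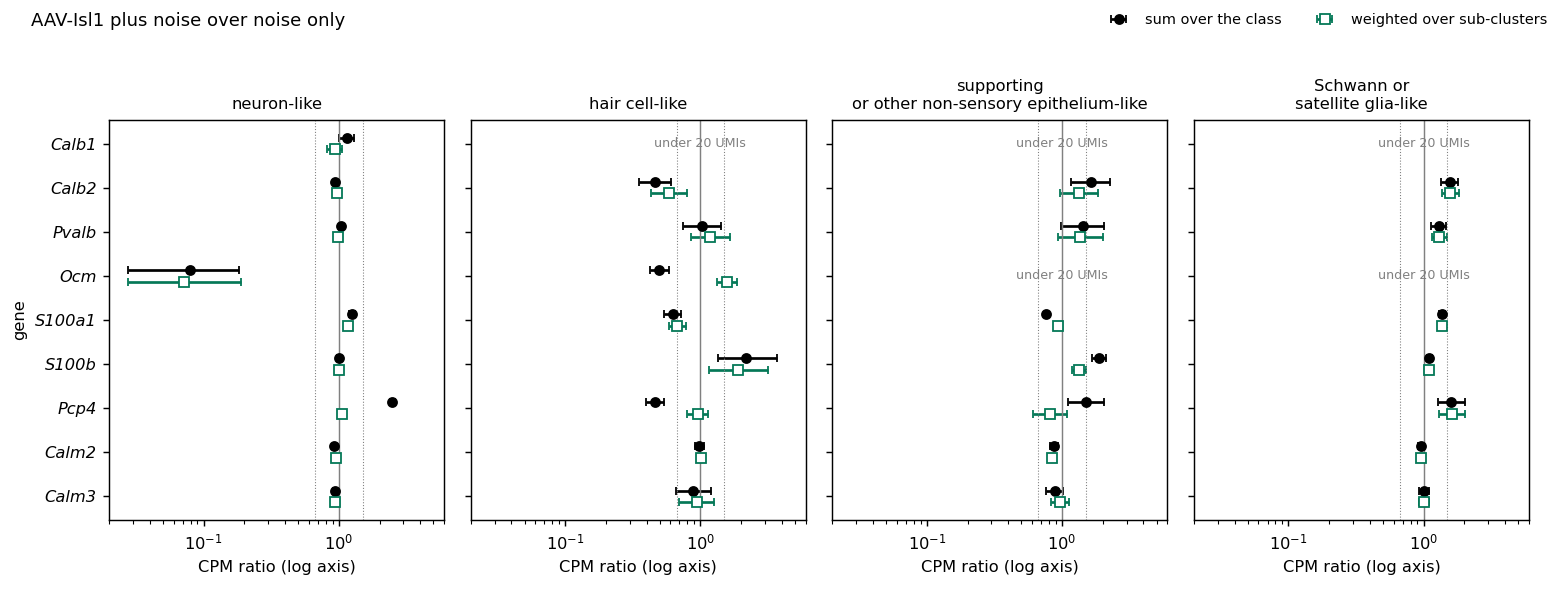
CPM ratios of AAV-Isl1 plus noise over noise only (log axis) for the 9 genes (rows) in 4 classes (panels), as the sum over the class (filled circles) and weighted over its sub-clusters (open squares), with counting intervals at 95%, a solid line at 1 and dotted lines at a fold of 1.5. The neuronal Pcp4 ratio is 2.49 as a sum and 1.05 when weighted, and that of Ocm in hair cell-like cells is 0.497 as a sum and 1.57 when weighted.

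Other calcium genes were counted in 3 lists. In neuron-like cells, 3 of 31 EF-hand sensors and S100 genes were at least 1.5-fold higher and 0 lower. Of 29 calmodulin targets and IQ-motif genes, 0 were higher and 0 lower. Of 33 calcium pumps, channels and store genes, 6 were higher and 2 lower. Over all neuronal genes 6.28% were higher and 2.02% lower. The median log2 ratios were 0.04 for the EF-hand list, -0.02 for calmodulin targets and 0.03 for pumps and channels, beside 0.01 for all genes. Syt1, a calcium sensor of vesicle release and a leading gene of the Tac1 sub-cluster, had 92.3 CPM with AAV-Isl1 against 45.5 CPM with noise only (ratio 2.03, 1.79 to 2.3). S100a11 (ratio 2.03), S100a13 (1.69) and Itpr2, a calcium release channel of the endoplasmic reticulum (1.69), also stood above 1.5. The abundant Atp2a2, the calcium pump of that store, had 547 CPM with AAV-Isl1 against 571 CPM with noise only (ratio 0.959, 0.921 to 0.998).

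The EF-hand list of hair cell-like cells had 5 higher and 2 lower of 20 measured, the calmodulin targets 0 higher and 1 lower of 9, and the pumps and channels 1 higher and 0 lower of 14. Of all genes 13.7% were higher and 10.9% lower. The abundant hair cell sensors differed little. Calml4, a calmodulin-like protein, had 2076 CPM with AAV-Isl1 against 1997 CPM with noise only (ratio 1.04, 0.913 to 1.19). Cib3, a partner of the mechanotransduction channel, had a ratio of 0.985, and Cabp2, a regulator of the presynaptic calcium channel, one of 1.1. Cib2, the relative of Cib3, had 254 CPM with AAV-Isl1 against 466 CPM with noise only (ratio 0.546, 0.40 to 0.748). S100a13 had a ratio of 0.495 and S100a6 one of 1.85.

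In epithelium-like cells the counts were 4 higher and 5 lower of 27 EF-hand genes, 1 higher and 1 lower of 19 calmodulin targets, and 5 higher and 0 lower of 19 pumps and channels. The shares of all genes were 14.3% higher and 7.26% lower. S100a13, the most abundant of the listed genes, was lower like S100a1, with 2234 CPM with AAV-Isl1 against 3527 CPM with noise only (ratio 0.633, 0.604 to 0.664). Efhd1, an EF-hand protein of mitochondria, had a ratio of 0.468. The largest ratios included those of Atp2b2, the calcium pump of the hair bundle (2.23), Cabp2 (1.95) and Cib3 (1.91). Hair cell markers summed to 829 CPM with AAV-Isl1 against 507 CPM with noise only (ratio 1.63, 1.49 to 1.8) in the same cells, and their part was not tested.

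In glia the counts were 2 higher and 0 lower of 27 EF-hand genes, 2 higher and 0 lower of 27 calmodulin targets, and 3 higher and 1 lower of 22 pumps and channels. Of all genes 7.92% were higher and 3.03% lower. S100a6, the most abundant listed gene of glia, had 3531 CPM with AAV-Isl1 against 3703 CPM with noise only (ratio 0.954, 0.932 to 0.976). Calml4 (2.39) and S100a11 (1.91) were the EF-hand genes that were higher.

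The genes whose pattern over classes was most like each member were found by Pearson's r of log2(CPM + 10), over 34 points (17 classes in 2 libraries). These points are not independent. Classes of the same library share ears and free RNA, and the 2 libraries share mice. Calb2 was closest to Nefl (r = 0.97), Pvalb (r = 0.97), Nefm (r = 0.97). For Pvalb they were Cplx1 (r = 0.98), Nefl (r = 0.98), Eef1a2 (r = 0.98). Nefl and Nefm encode neurofilaments. Calb1 was closest to 3110039M20Rik (r = 0.98), Lrrc55 (r = 0.98), Cpne6 (r = 0.97), and Pcp4 to Kif5c (r = 0.89), Scg5 (r = 0.89), Snap91 (r = 0.89). S100a1 and S100b had weaker companions, Chpt1 (r = 0.87), Adgra3 (r = 0.87), Twf1 (r = 0.87) for S100a1 and Megf9 (r = 0.73), Fibp (r = 0.69), Chchd10 (r = 0.69) for S100b. Those of Calm2 were Napa (r = 0.88), Nedd8 (r = 0.85), Usp20 (r = 0.84), and those of Calm3 Sucla2 (r = 0.86), Ube2n (r = 0.85), Tecr (r = 0.85). With hair cell-like and oligodendrocyte-like cells added (38 points), Ocm was closest to Kcna10 (r = 0.97), Cacna2d4 (r = 0.97), Fam183b (r = 0.97). Over the 34 points without them, its closest genes were Syt14 (r = 0.69), Cd164l2 (r = 0.67), Smpx (r = 0.67).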

How the data were processed

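The deposited matrices hold UMI counts per gene and barcode, whole numbers. Cell Ranger 5.0, STAR, mm10 (GRCm38) and Seurat 3.2.2 are named by the submitters' processing notes, and the counts are as the authors deposited them. The matrix header names Cell Ranger 5.0.1. Per the labels, a 10x Genomics 3' kit was used. The AAV-Isl1 library had 24209 barcodes with 40268563 UMIs, and the noise-only library 21068 with 38330528.

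Barcodes needed 300 genes and no more than 20% mitochondrial UMIs. Scrublet (scanpy 1.11.5) called 0 doublets at its automatic thresholds. The score that marks the expected 6% of noise-only barcodes was then applied to both libraries. This cutoff was set after the automatic calls were seen. It removed 936 AAV-Isl1 and 1196 noise-only barcodes. Cells were clustered on variable genes (2000 per library) without the 9 members, with 50 principal components, 15 neighbours and Leiden resolution 1.0, and without batch correction. Of 29 clusters, 23 were named, in 16 classes. A name required 3 or more class markers enriched 4-fold and present in 10% of cells. At least 1 of the 10 leading genes had to be a marker of that class, and no other class could have more there. A cluster over 2.5 times as deep as the largest cluster of its name was left unnamed. The Hbb-bt cluster was 1 of these. It had 891 Pvalb and 620 Calb2 UMIs with AAV-Isl1, and 239 Pvalb and 385 Calb2 UMIs with noise only. Sub-clusters used resolution 0.6 (glia 0.3), and a subtype name required 3 markers enriched 2-fold.

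Intervals are exact (Poisson for CPM, Clopper-Pearson for shares, conditional binomial for ratios). Weighted ratios are Mantel-Haenszel ratios over sub-clusters, with large-sample intervals. A count of 0 allows up to 3 counts. The ratio step was tested on simulated counts. Members and lists were chosen with earlier results of these data known. Named list genes were, per class, the 4 with the most UMIs and up to 4 each with the largest and the smallest ratio, given 50 UMIs, a 1.5-fold difference and an interval without 1, and some of them are printed. Genes like a member were the 3 with the highest r, over classes of 100 or more cells per library. The wider class set used for Ocm was added after seeing the data, since the narrower one leaves out hair cell-like cells.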

Additional observations from a re-analysis of the deposited data

Results flagged for a closer look

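Calb2 and Pcp4 were at least 1.5-fold higher in some classes and at least 1.5-fold lower in hair cell-like cells, with intervals on opposite sides of 1, which is what singled them out. The difference between the classes was not tested, since each class has 1 library per group. Calb2 had a ratio of 1.56 (1.34 to 1.8) in glia and 1.63 (1.17 to 2.27) in epithelium-like cells, while hair cell-like cells had 0.461 (0.35 to 0.609). Pcp4 had a ratio of 2.49 (2.41 to 2.58) in neuron-like cells, 1.6 (1.27 to 2.01) in glia and 1.5 (1.11 to 2.04) in epithelium-like cells, while hair cell-like cells had 0.463 (0.396 to 0.542). Weighted over sub-clusters, the Pcp4 ratio was 1.05 in neuron-like cells, 0.815 in epithelium-like cells and 0.952 in hair cell-like cells. Without the Slc26a5 sub-cluster the hair cell Pcp4 ratio was 1.34. The weighted Calb2 ratio was 0.59 (0.434 to 0.802) in hair cell-like cells, 1.33 (0.964 to 1.84) in epithelium-like cells and 1.57 in glia. In hair cell-like cells the Calb2 ratio was nearer 1 without the Slc26a5 sub-cluster or the 5 richest cells, as given above. Over the 9 classes used for the floor, the median ratio was 1.62 for Calb2 and 1.61 for Pcp4. The part of the floor in the glial and epithelial ratios was not tested. The hair cell-like class holds 323 AAV-Isl1 and 92 noise-only cells.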

How the results depend on the processing

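No paired analysis was possible because each group is 1 pooled library. Leaving out a replicate could not be done for the same reason. Of 474 values recomputed, 365 stayed within the counting interval of the reported ratio, 92 moved and 17 changed direction from a ratio whose interval did not include 1, and the cause was not tested. Leaving out or weighting sub-clusters was chosen after seeing the data.

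In neuron-like cells the Calb1 ratio was 0.825 with cells thinned to 1000 UMIs, 0.932 without the 5 richest cells, 0.875 as a mean over cells, 0.888 without the Tac1 sub-cluster and 0.934 weighted. Calb2 was 1.03 thinned and 1.05 without the Tac1 sub-cluster. Pvalb was 0.982 as a mean over cells, 0.958 without the Tac1 sub-cluster and 0.981 weighted. In hair cell-like cells Ocm was 2.75 without the 5 richest cells, 1.33 without the Slc26a5 sub-cluster and 1.57 weighted. Pcp4 was 1.2 without the 5 richest cells and 1.34 without the Slc26a5 sub-cluster, and S100a1 was 1.02 without the 5 richest cells. Pcp4 in epithelium-like cells was 0.815 weighted.

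The number of members past 1.5-fold in neuron-like cells, 2, was 1 when thinned, without the 5 richest cells, after subtracting the erythroid-like level as free RNA and when weighted. In hair cell-like cells, 5 became 3 with at least 500 genes per cell and at most 10% mitochondrial UMIs, 1 thinned, 2 without the 5 richest cells, 2 without the Slc26a5 sub-cluster and 3 weighted. In epithelium-like cells, 3 became 1 under the stricter filter, 1 thinned, 1 without the Otol1 and Isl1 sub-clusters and 0 weighted. In glia, 2 became 0 under the stricter filter, 1 thinned and 1 without the 5 richest cells. Over all cells, 1 became 3 thinned, 2 without the 5 richest cells and 3 as a mean over cells. The hair cell-like class, with 92 noise-only cells, limits precision most among the 4 classes.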

Other observations

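Tac1, which gave the Pcp4-rich neurons their name, was itself uneven among the cells richest in Pcp4. Of the 10 neuron-like cells with the most Pcp4, 2 had a Tac1 UMI with AAV-Isl1 and 7 with noise only. The noise-only cell ranked second had 46 Tac1 UMIs beside 281 of Pcp4, while the AAV-Isl1 cell with the most Pcp4, 367 UMIs, had 0 of Tac1. These cells were picked by their Pcp4 count, so the values are a description of single barcodes.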
